A study of Mus musculus with 15 samples.

Results

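The homeostatic microglia genes described here are Cx3cr1, P2ry12, P2ry13, Tmem119, Csf1r, Siglech, Gpr34, Selplg, Mertk and Olfml3, 10 genes taken by symbol from the 22524 gene rows of each library. They were followed in RNA from 15 female C57BL/6 mice aged 18 months. The 7 mutant animals were heterozygous, with 1 Rps9 allele coding for D95N, a substitution in a small ribosomal subunit protein, and 1 wild-type allele, and the 8 littermate controls had only wild-type Rps9. How the line was made, and which cells carry the substitution, is not given in the sources used here. The study asked how error-prone translation affects the ageing brain. RNA was taken with Trizol from frozen tissue and made into standard Illumina libraries, which are named here by genotype and animal number. Fold changes are log2 values of D95N over wild type with their SE, and p-values are adjusted over all tested genes.

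Microglia are the resident macrophages of the brain. At rest they carry a characteristic set of surface receptors through which they read nucleotides, chemokines, growth factors and dying cells. These genes are known to be turned down when microglia enter an activated state, and TGF-beta signalling and the transcription factors PU.1 (Spi1) and Sall1 are known to maintain them. In bulk tissue, fewer microglia and less of an RNA per microglial cell cannot be told apart. Csf1r, Cx3cr1 and Mertk are also made by macrophages at the brain's borders, and Mertk by astrocytes.

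The tissue field of the labels names skeletal muscle and the series design brain cortex. Snap25, a neuronal fusion protein, ran from 2635 to 3048 CPM (reads scaled to library size) over the libraries, and Acta1, muscle actin, from 4.49 to 11.2 CPM, highest in wild-type 19. Summed over 8 neuronal genes the level was 7542 to 8207 CPM in wild type and 7538 to 8908 CPM in D95N. Over 10 muscle genes it was 9.51 to 36.1 CPM in wild type, highest in wild-type 19, and 9.24 to 14.5 CPM in D95N. The tissue was treated as brain. All 10 members were present in every library, with deposited counts between 260 for P2ry13 in D95N 21 and 4017 for Csf1r in wild-type 32. Library totals ran from 23349381 to 34587082 with means of 31533298 in wild type and 28994834 in D95N (exact permutation test, two-sided, p = 0.14). Rps9 itself had a fold change of -0.05 ± 0.05 (SE; adjusted p = 0.505 by edgeR), and gene counts cannot show the substitution. On the first principal component of all tested genes, the wild-type libraries lay between 10.6 and 19.4, D95N 42 among them at 13.9, and the other D95N libraries between -32.5 and -4.89.

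The members lie on 7 chromosomes of GRCm38, and 2 pairs are neighbours with no protein-coding gene between them. P2ry12 (ENSMUSG00000036353, chromosome 3, 59216272 to 59262871) and P2ry13 (ENSMUSG00000036362, chromosome 3, 59207892 to 59210882) are 5.39 kb apart on the minus strand, inside Med12l on the opposite strand. Tmem119 (ENSMUSG00000054675, chromosome 5, 113793729 to 113800516) and Selplg (ENSMUSG00000048163, chromosome 5, 113818536 to 113832644) are 18.0 kb apart, also on the minus strand. Gpr34 (ENSMUSG00000040229, chromosome X, 13632089 to 13640858) lies inside Cask, again on the opposite strand. Csf1r is placed with its values. The others are Cx3cr1 (ENSMUSG00000052336, chromosome 9, 119901616 to 120069879), Siglech (ENSMUSG00000051504, chromosome 7, 55768178 to 55778925), Mertk (ENSMUSG00000014361, chromosome 2, 128698956 to 128802894) and Olfml3 (ENSMUSG00000027848, chromosome 3, 103722222 to 103738001).

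Promoter windows of 300 bases, 250 before and 50 after the start, were matched for 6 of the 10 members in RefSeq (GRCm38.p6). The windows of P2ry12 and P2ry13 are shown because these neighbours varied together from library to library, and that of Mertk because it varied against them. They lie at chr3:59262936-59263235 (minus strand), chr3:59210833-59211132 (minus strand) and chr2:128698665-128698964 (plus strand). Capitals mark GAGGAA or GGAAGT on either strand, the overlapping left and right parts of a PU.1 recognition sequence, which share GGAA.
P2ry12: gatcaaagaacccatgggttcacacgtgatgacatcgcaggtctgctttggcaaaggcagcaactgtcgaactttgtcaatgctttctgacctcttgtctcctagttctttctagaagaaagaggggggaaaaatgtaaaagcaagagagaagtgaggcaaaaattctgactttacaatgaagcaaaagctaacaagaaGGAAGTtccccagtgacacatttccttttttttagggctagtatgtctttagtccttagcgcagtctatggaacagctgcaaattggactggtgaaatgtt
P2ry13: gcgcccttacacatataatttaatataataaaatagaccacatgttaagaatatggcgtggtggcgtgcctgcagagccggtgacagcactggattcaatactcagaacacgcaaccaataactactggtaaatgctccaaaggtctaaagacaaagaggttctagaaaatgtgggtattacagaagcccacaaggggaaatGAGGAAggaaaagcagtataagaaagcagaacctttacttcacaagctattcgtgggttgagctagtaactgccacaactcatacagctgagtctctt
Mertk: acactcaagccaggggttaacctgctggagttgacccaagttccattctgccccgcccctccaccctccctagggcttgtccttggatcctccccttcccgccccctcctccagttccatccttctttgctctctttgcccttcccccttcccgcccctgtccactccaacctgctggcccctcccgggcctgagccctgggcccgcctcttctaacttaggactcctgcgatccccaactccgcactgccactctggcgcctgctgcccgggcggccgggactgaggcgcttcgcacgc
P2ry12 holds GGAAGT at position -51 from the start and P2ry13 holds GAGGAA at -48, while neither is in the Mertk window. These starts are those of the windows. All of the P2ry12 window lies before the gene as placed above, which starts at 59262871 on the minus strand. GAGGAA occurs in 28.3% and GGAAGT in 23.8% of the 32851 windows in the table, so a match is common. The Mertk window is 66.0% G and C with 14 CpG dinucleotides, and those of P2ry12 and P2ry13 are both 42.3% with 4 and 6 CpGs, against medians of 52.7% and 7 over all windows. Of the other windows, Siglech holds both motifs, and Cx3cr1 and Olfml3 hold neither.

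None of the 10 members passed the test at an adjusted p of 0.05, in either direction, in a comparison in which 26.8% of the 14989 tested genes passed (2272 with a higher level in D95N and 1744 with a lower one, or 1808 and 2536 when scaled by library totals). At an unadjusted p under 0.05 there were 4 members, Mertk, Csf1r, Selplg and P2ry12, against 39.9% of all tested genes, and DESeq2 called Mertk. The fitted fold change was below 0 for 9 of 10 members, with a median of -0.12 on the log2 scale, against 51.9% of all tested genes and a median of -0.01. Scaled by library totals all 10 were below 0, and 3 of them, Mertk, Csf1r and Selplg, passed. The groups overlapped for each member, while they did not for 3.28% of all tested genes. The summed level of the members was 394 ± 15.7 CPM (SD, n = 8) in wild type and 363 ± 29.99 CPM (SD, n = 7) in D95N.

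**Figure D1:**
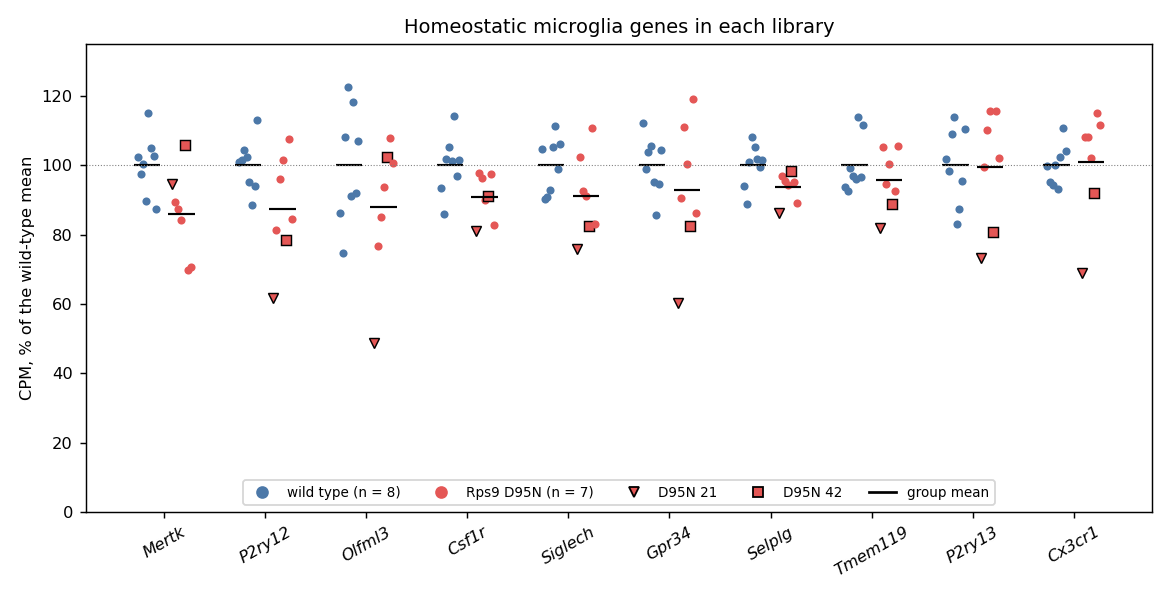
Level of each member in each library as a percentage of its wild-type mean, ordered from the lowest to the highest fold change (8 wild-type and 7 D95N libraries; points are libraries, lines group means). D95N 21 (triangle) is the lowest library for 9 of the 10 genes, and only in Mertk is it within the wild-type values.

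D95N 21 had low levels of most of these genes, although for no member was it farther from its group than the criterion for a library standing apart. It was the lowest of all 15 libraries for 9 members, at 48.7% of the wild-type mean for Olfml3, 60.2% for Gpr34 and 61.8% for P2ry12, but at 94.7% for Mertk. D95N 42, which lay among the wild-type libraries on the first component, was below every wild-type library in 6 members: Cx3cr1, P2ry12, P2ry13, Tmem119, Siglech and Gpr34. D95N 50 was below that range in 4 members and D95N 4 in none. Without D95N 21 the median over the members was -0.08, 8 of 10 were below 0 and none passed.

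P2ry12, the ADP receptor that steers microglial processes to injury, ran from 36.8 through a median of 42.2 to 47.2 CPM in wild type and from 25.8 through 35.2 to 44.9 CPM in D95N. Of the D95N libraries 4 lay below every wild-type library and 3 within their range. It was fitted at -0.19 ± 0.09 (SE; adjusted p = 0.124 by edgeR), and -0.12 without D95N 21. Leaving out D95N 44, the highest D95N library, gave -0.25, which passed (edgeR, adjusted p = 0.0474). Med12l, the gene around it, was at -0.14 ± 0.06 (edgeR, adjusted p = 0.11), and at -0.20 without D95N 42, which passed. It shares 9 exonic bases with P2ry12 and none with P2ry13, and whether counting used strand is not given in the sources used here.

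P2ry13, another ADP receptor of microglia, stood at 12.6 ± 1.39 CPM (SD, n = 8) in wild type and 12.6 ± 2.11 CPM (SD, n = 7) in D95N. Its D95N libraries were split, with 2 above and 2 below all wild-type values. This gave a fold change of -0.00 ± 0.10 (SE; adjusted p = 0.983 by edgeR), with a 95% interval from -0.21 to 0.20. Gpr34, a receptor for lysophosphatidylserine, was equally uneven, D95N 21 standing at 13.8 CPM and D95N 44 at 27.3 CPM, against 19.6 to 25.7 CPM in wild type. The estimate was -0.10 ± 0.11 (SE; adjusted p = 0.499 by edgeR) and -0.02 without D95N 21. Cask, its host gene, shares no exonic base with it and was at 0.05 ± 0.03.

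Cx3cr1, the receptor for the neuronal chemokine fractalkine, ran from 49.4 through 53.1 to 58.8 CPM in wild type and from 36.5 through 57.3 to 61.0 CPM in D95N. The D95N median was thus the higher, and 2 D95N libraries stood above and 2 under the wild-type range. It was fitted at 0.01 ± 0.08 (SE; adjusted p = 0.932 by edgeR) with a 95% interval from -0.16 to 0.19, and 0.09 without D95N 21. The sign of this small value depends on scaling, at -0.02 with library totals. No annotated gene in the files shares exonic bases with Cx3cr1.

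Mertk, a receptor tyrosine kinase through which phagocytes take up dying cells and synapses, had the lowest fold change of the members. In wild type it ran from 50.3 through 58.4 to 66.3 CPM and in D95N from 40.1 through 50.3 to 61.0 CPM. D95N 44 and D95N 50 were the lowest, at 40.1 and 40.6 CPM, 3 D95N values were under the wild-type range, and D95N 42 was the highest of its group. This gave a fold change of -0.22 ± 0.08 (SE; adjusted p = 0.0556 by edgeR), a level 14.1% lower, with a 95% interval from -0.39 to -0.05. It was -0.25 with library totals, -0.24 with upper-quartile factors, -0.22 by DESeq2, -0.23 by limma-voom and -0.22 after thinning to equal depth, and passed in each of these (adjusted p = 0.0324, 0.0356, 0.0431, 0.0476 and 0.04996). Without D95N 42 it was -0.27 and passed (edgeR, adjusted p = 0.00899), and it also passed without wild-type 24 or wild-type 8. Leaving out any other library it did not pass, and without D95N 44 it was -0.17. Nor did it pass with DESeq2 size factors in edgeR, no filter, a filter at a mean of 1 CPM, the GC and length correction or any list covariate. In all, Mertk passed in 8 of 27 alternatives.

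Part of the astrocyte list was lower in D95N. Of its 15 tested genes 7 were called lower (4 without wild-type 32) and 0 higher, beside 11.6% of all tested genes called lower and 15.2% higher. Aldh1l1 at 0.02 and Sox9 at 0.15 were above 0 and did not pass, nor did Slc1a2 at -0.01 or Aqp4 at -0.05. Among those called, Slc1a3, which takes up glutamate, was at -0.22, Slc4a4, a bicarbonate transporter, at -0.25, and Gja1, a gap junction protein, at -0.35. The summed level of the list was 7567 to 8002 CPM in wild type and 6695 to 7599 CPM in D95N, with D95N 50, 28 and 44 the lowest. With the mean of the astrocyte list as a covariate Mertk stood at 0.04 ± 0.15 (SE). In that fit, where the variance inflation of genotype was 3.84, the median SE over all genes was 0.127 instead of 0.065, and 5 genes in all passed, 3 higher and 2 lower.

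Csf1r, the receptor for the growth factors on which microglia depend for survival, had the highest level per length of the members. It ran from 92.9 through 110 to 123 CPM in wild type and from 87.8 through 98.7 to 106 CPM in D95N, so the groups overlapped although all 7 D95N libraries lay below the wild-type median. The estimate was -0.14 ± 0.06 (SE; adjusted p = 0.0783 by edgeR), with a 95% interval from -0.26 to -0.02. It passed with library totals (-0.17), upper-quartile factors (-0.16), a GC and length correction (-0.17) and the mean of other microglia genes as a covariate (-0.16; edgeR, adjusted p = 0.00511), and without wild-type 16. With the astrocyte covariate it stood at 0.03 ± 0.10. Csf1r (ENSMUSG00000024621) lies on chromosome 18, from 61100598 to 61132149. Of its exonic bases 873, or 15.1%, are also exonic in Hmgxb3 on the opposite strand, a gene that rose 1.17-fold (edgeR, adjusted p = 0.00594), so part of either count is uncertain.

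The remaining members are surface or secreted proteins. Selplg, the P-selectin ligand, had the smallest error, with a fold change of -0.09 ± 0.04 (SE; adjusted p = 0.121 by edgeR). It ran from 28.8 to 35.1 CPM in wild type and from 27.96 to 31.9 CPM in D95N, each of these 7 under the wild-type median. Siglech, a sialic acid-binding lectin, was at -0.13 ± 0.08, with 3 D95N libraries below the wild-type range and D95N 44 near its top at 16.6 CPM. Tmem119, a membrane protein widely used to tell microglia from other macrophages, was at -0.07 ± 0.06 and between 23.6 and 30.4 CPM in D95N, against 26.6 to 32.7 CPM in wild type. It passed with the GC and length correction, at -0.15. Olfml3, a secreted glycoprotein, had the largest error, at -0.19 ± 0.14, and -0.08 without D95N 21.

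**Figure D2:**
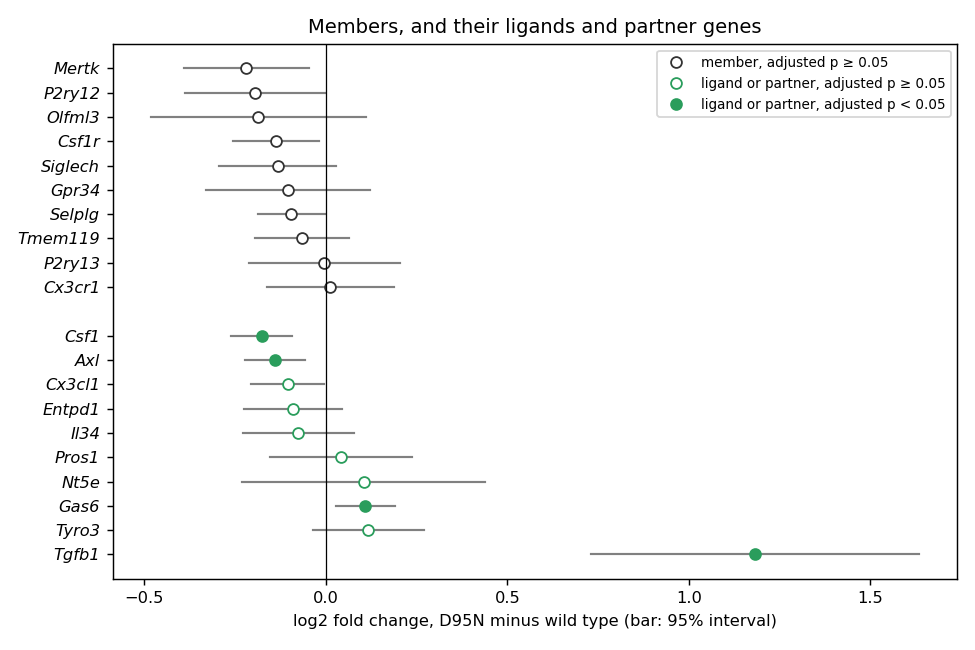
Log2 fold change of each member (top) and of each tested ligand or partner gene (bottom), D95N minus wild type, with its 95% interval (edgeR; filled points have an adjusted p under 0.05). No member is filled, and among the partner genes Csf1 and Axl lie below 0 and Gas6 and Tgfb1 above.

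Between animals of one genotype most members varied more in D95N. The coefficient of variation was larger in D95N for 8 of 10 members, with a median of 15.4% against 8.16% in wild type, where the medians over all tested genes were 10.8% and 6.27%. Without D95N 21 it was larger for 6 of 10, with a D95N median of 12.2%, and that of Cx3cr1 was 7.70% in place of 15.8%. Csf1r and Selplg were the exceptions with all libraries, and Selplg had the lowest value of the members in D95N, 4.67%. By another measure, the SD of log2 CPM, 83.1% of all tested genes had the larger spread in D95N.

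Levels between genes can be compared only per length, as CPM per kb of exon. In wild type Csf1r stood highest at 18.7 ± 1.57 CPM per kb (SD, n = 8), followed by P2ry12 at 16.4 ± 1.23, and the order was kept in 7 of 8 wild-type and 7 of 7 D95N libraries. Mertk at 13.3 ± 1.17, Tmem119 at 12.4 ± 1.004, Cx3cr1 at 11.8 ± 0.693 and Gpr34 at 10.96 ± 0.903 came next, and neighbours in this run changed places in 2 or 3 wild-type libraries. In D95N Mertk had rank 5, at 11.4 ± 1.71 CPM per kb (SD, n = 7), and above Tmem119 in only 2 of 7 libraries, against 5 of 8 in wild type. Selplg at 7.59 ± 0.463 followed in both genotypes, and P2ry13 at 4.99, Siglech at 4.42 and Olfml3 at 3.61 CPM per kb were the lowest. Lengths are those of the union of annotated exons, which overstates the transcript of genes with rare long isoforms.

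**Figure D3:**
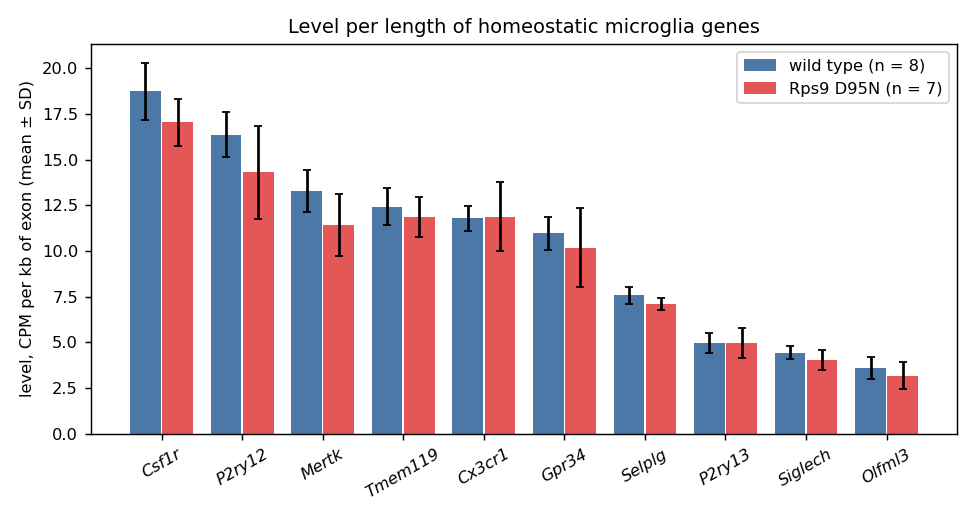
Level per length of each member in CPM per kb of exon (bars, mean; whiskers, SD; 8 wild-type and 7 D95N libraries), ordered by the wild-type mean. Csf1r and P2ry12 lead in both genotypes, and Mertk goes from rank 3 in wild type to rank 5 in D95N.

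The members did not vary as 1 block from library to library. With log2 CPM centred within genotype over the 15 libraries, P2ry12 went with Gpr34 at a Pearson r of 0.94 (Spearman's rho 0.88) and with P2ry13 at 0.89 (rho 0.91), and P2ry13 with Gpr34 at 0.86 (rho 0.85). These hold in wild type alone, at 0.78, 0.80 and 0.75, and without D95N 21, at 0.87, 0.83 and 0.77. P2ry12 and P2ry13 are neighbours, but Gpr34 is on another chromosome, while the neighbours Tmem119 and Selplg had an r of 0.31. Csf1r also went with Selplg at 0.83 (rho 0.74), and Olfml3 with Csf1r and Selplg at 0.62 and 0.66. These values were 0.81, 0.91 and 0.81 in wild type alone and 0.865, 0.44 and 0.61 in D95N alone. Without D95N 21 they were 0.79, 0.52 and 0.56. Over all 15 libraries Csf1r was as close to Siglech, at 0.665, and Olfml3 to Cx3cr1, at 0.68. Without D95N 21 the last pairs were at 0.58 and 0.09. These coefficients are descriptions: the points share library, depth and scaling.

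Mertk varied against most of the others. Its r with 7 members ran from -0.74 with P2ry13 (rho -0.79) to -0.25 with Siglech, and it was near 0 with Csf1r and Selplg, at -0.00 and 0.10. With P2ry13 it was -0.87 in the 8 wild-type and -0.69 in the 7 D95N libraries. Against the mean of the other 9 members Mertk had an r of -0.55 (rho -0.58), and -0.46 without D95N 21 and D95N 44, the libraries farthest from the median. Over all 15 libraries, the r of Mertk with the means of the lists of other genes ran from -0.51 with neurons to 0.50 with astrocytes. It was 0.39 with oligodendrocytes, 0.33 with red cells and -0.35 with both other microglia genes and meningeal fibroblasts. The mean of the other 9 members had its highest r with other microglia genes, 0.81, then 0.66 with meningeal fibroblasts, and -0.06 with astrocytes. These values with the lists were not computed without D95N 21. Much of the likeness among the members rests on D95N 21. Over all 45 pairs the median r was 0.39, and 0.12 without that library, and of the 36 pairs without Mertk 36 had an r above 0 with it and 27 without. For Cx3cr1 the r with the mean of the others fell from 0.81 to 0.33 without it.

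**Figure D4:**
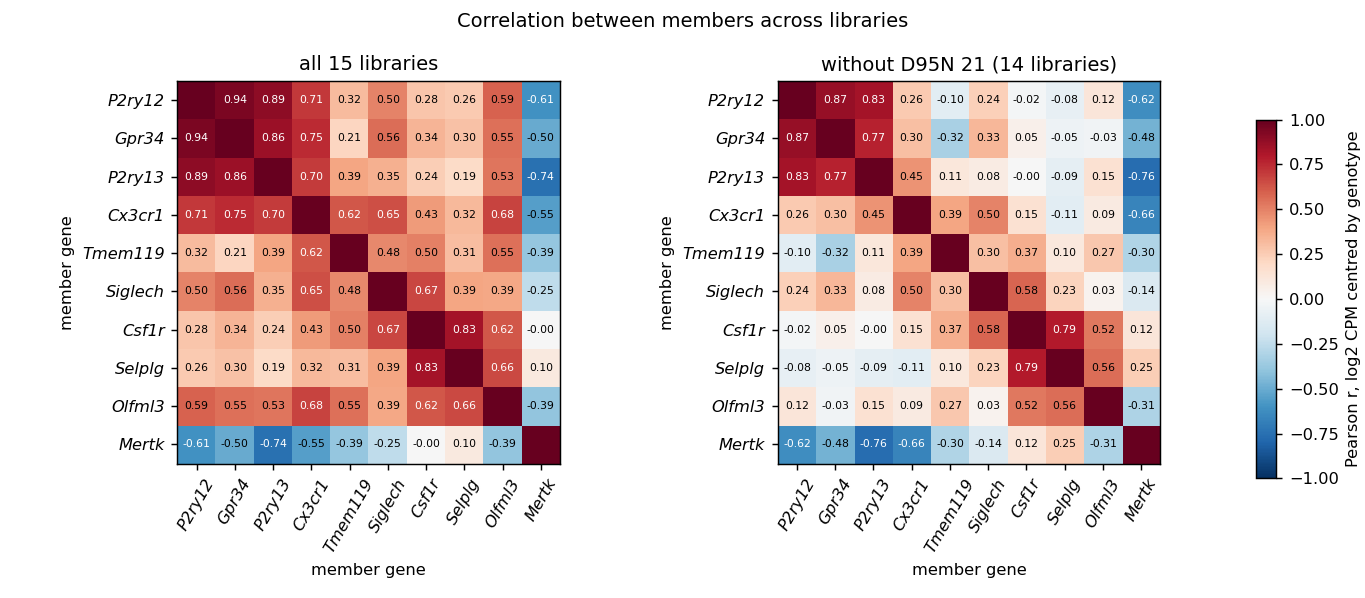
Pearson r between members over libraries, from log2 CPM centred by genotype, with all 15 libraries (left) and without D95N 21 (right); red is positive and blue negative. P2ry12, Gpr34 and P2ry13 stay together in both panels (0.77 to 0.94), and the Mertk row is mostly blue.

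Among 13810 other genes with at least 1 CPM, the 8 most like the mean of the members included Lpcat2 (r = 0.92), Adgre1 (0.91), Itgam (0.89), Clec5a (0.87), Ly86 (0.86) and Mpeg1 (0.86). Adgre1 codes for the macrophage protein F4/80, Itgam for an integrin chain and Mpeg1 for perforin-2. Without D95N 21 the r of these named genes ran from 0.53 for Ly86 to 0.79 for Mpeg1, and none of them was among the 8 most alike.

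The listed ligands and partner genes of the members moved in both directions. Of 12 ligands and partner genes 10 were tested, and 2 rose and 2 fell, beside 26.8% of all tested genes in either direction (1 and 3 with library totals, upper-quartile factors or the GC and length correction). Csf1, a ligand of Csf1r, fell from 28.1 ± 1.16 CPM in wild type (SD, n = 8) to 24.8 ± 1.27 CPM in D95N (SD, n = 7), with every D95N value under every wild-type one. It was fitted at -0.18 ± 0.04 (SE; adjusted p = 0.00439 by edgeR). The other ligand, Il34, was at -0.08 ± 0.07 and did not pass.

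Cx3cl1, fractalkine, ran from 598 to 694 CPM in wild type. In D95N 6 of 7 libraries lay between 549 and 610 CPM, below the wild-type median, while D95N 28 stood at 697 CPM, above all others. This gave a fold change of -0.10 ± 0.05 (SE; adjusted p = 0.108 by edgeR), and -0.14 without D95N 28, which passed (edgeR, adjusted p = 0.0114). It also passed with library totals, upper-quartile factors and the GC and length correction, at -0.14, -0.13 and -0.17. Of the ligands of Mertk, Gas6 rose from 108 ± 4.78 to 117 ± 6.72 CPM, at a fold change of 0.11 ± 0.04 (SE; adjusted p = 0.046 by edgeR). This call was lost with library totals (0.07; adjusted p = 0.147) and without any of 10 of the 15 libraries. Pros1, the other ligand, was at 0.04 ± 0.09. Axl, a kinase of the Mertk family, fell at -0.14 ± 0.04 (SE; edgeR, adjusted p = 0.0158), and Tyro3, the third, was at 0.12 ± 0.07 and did not pass.

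Tgfb1, the cytokine that maintains the homeostatic state, rose 2.27-fold. Its mean was 6.66 ± 0.938 CPM in wild type (SD, n = 8) and 15.2 ± 6.63 CPM in D95N (SD, n = 7). It was 7.32 CPM in D95N 41 and 8.77 CPM in D95N 42, and between 11.9 and 25.0 CPM in the other 5, so that 6 of 7 were above the highest wild-type value of 8.08 CPM. The estimate was 1.18 ± 0.21 (SE; adjusted p = 0.00111 by edgeR), and 1.01 without D95N 4. The ectonucleotidases Entpd1, which breaks down ATP and ADP, and Nt5e were at -0.09 ± 0.06 and 0.10 ± 0.16 and did not pass. Selp was too low to be tested.

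Of 12 regulators of microglial identity 2 rose and none fell, or 16.7%, where 15.2% of all tested genes were called higher. One of them was Lrrc32, a surface anchor of latent TGF-beta, from 3.49 ± 0.378 CPM in wild type (SD, n = 8) to 5.26 ± 1.70 CPM in D95N (SD, n = 7), at a log2 fold change of 0.58 ± 0.16 (SE; adjusted p = 0.0118 by edgeR). Sall1 was at -0.15 ± 0.08, Spi1 at 0.13 ± 0.11 and Nrros at -0.22 ± 0.15, and none of these 3 passed. Mef2a, Mef2c, Smad3 and the TGF-beta receptors of this list are also made by other brain cells. In which cells Lrrc32 rose was not tested. Of 28 other microglia genes 4 rose and none fell, or 14.3%, Golm1 at 1.31-fold, Lag3 at 1.36-fold, Aif1 (the marker Iba1) at 1.36-fold and Rgs10. The call of Aif1 was lost without any of 7 of the 15 libraries. Their median log2 fold change was -0.01, with 16 of 28 below 0, and their summed level was 742 ± 74.7 CPM (SD, n = 8) in wild type and 737 ± 63.4 CPM (SD, n = 7) in D95N. D95N 21 had the lowest sum here too, at 626 CPM. With the mean of this list as a covariate the members' median was -0.15, all 10 were below 0, and Csf1r passed.

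Genes of the activated, disease-associated state showed no common direction. Of 24 tested 6 rose and 5 fell (4 and 5 with library totals), beside the 26.8% of all genes. Gpnmb, a lysosomal glycoprotein, rose 2.54-fold from 4.996 ± 1.14 to 12.7 ± 4.30 CPM, and Timp2, a protease inhibitor, rose 1.43-fold. Lpl, lipoprotein lipase, fell to 0.639-fold, and all 7 D95N values were under the lowest of wild type. Csf1 and Axl are in this list as well. Timp2, Lpl and Csf1, like several others of the list, are also made by other brain cells, so their values are not those of microglia alone.

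Markers of other cells that could be counted with microglia also moved. Of 11 tested genes of border macrophages 4 fell and none rose, beside 11.6% of all tested genes called lower. The 3 of smallest p were Clec12a at a log2 fold change of -0.92, Cd163 at -0.65 and Dab2 at -0.35. Cbr2, Lyve1 and Folr2 were above 0, at 1.198, 0.27 and 0.17, and did not pass. Cbr2 stood at 11.015 CPM in D95N 21, against a D95N median of 1.12 CPM. The summed level of that list was 40.5 to 61.9 CPM in wild type and 39.3 to 48.3 CPM in D95N. The means of Cd163, a scavenger receptor, were 3.64 and 2.33 CPM. Of 6 tested monocyte and neutrophil genes 4 fell, S100a8, Ltf and S100a9 among them. Summed over all 10 genes of that list, tested or not, the level was 2.57 to 38.2 CPM in wild type and 2.46 to 5.58 CPM in D95N. Wild-type 32 was the highest, and without it 1 of 4 tested fell. With limma-voom S100a8, Ltf and S100a9 did not pass. Their part in the members' values was not tested.

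Among further cell types, 3 of 8 neuronal genes rose and 2 fell, 4 of 10 vessel genes, 5 of 6 red cell genes (3 without wild-type 32) and 4 of 9 meningeal genes fell, and none of 9 oligodendrocyte or 6 tested muscle genes passed. At an unadjusted p under 0.05 there were 1 and 0 of the last 2 lists (edgeR), and the GC and length correction called 1 oligodendrocyte gene lower. These counts stand beside 11.6% of all tested genes called lower and 15.2% higher. With red cell and meningeal lists as covariates the members' median was -0.03, 7 of 10 were below 0 and Olfml3 stood at 0.41 ± 0.15. In that fit 8 of all genes passed, 3 higher and 5 lower, and the median SE was 0.111.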

How the data were processed

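Total RNA of 15 tissue samples was sequenced. Each library's deposited file gives unnormalized counts for 22524 Ensembl genes, produced with STAR and featureCounts on GRCm38 per the submitters' processing notes. The sources used here do not give versions, the annotation, whether strand was used, or how multi-mapping reads were treated. Symbols, positions and exon lengths came from GENCODE M21 (GRCm38), which matched 22291 genes.

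Groups came from the sample titles. The test was edgeR 4.0.16 (quasi-likelihood, R 4.3.3) on these deposited counts, scaled by TMM and filtered by filterByExpr, with genotype as the only term and Benjamini-Hochberg adjustment over all 14989 tested genes at 0.05. SE is the log2 fold change over the square root of F. CPM were computed from the deposited counts with TMM factors, and log2 CPM with a prior count of 2. The test was checked on simulated counts. Alternatives were other scalings and filters, DESeq2 1.42.0, limma-voom 3.58.1, thinning to the shallowest library, a GC and length correction, list means as covariates and each library left out in turn. Batches, litters and dates are not in the labels. Replicates are separate animals. Intervals from read counts would cover counting error only, so spread between animals is given.

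The members and the 14 gene lists were chosen with earlier results of these data known. Named genes are the members, genes around or overlapping them in exons, the ligand list, up to 3 passing genes of smallest p per list (2 as values where none passed) and the 8 genes most like the members' mean. Rgs10, Sall1, Spi1, Nrros, Aldh1l1, Sox9, Slc1a2, Aqp4, Cbr2, Lyve1 and Folr2 were added after their values were seen. The lists of neurons, oligodendrocytes, vessels, red cells, meninges and muscle are given by counts only. Exceptions are the tissue check genes Snap25 and Acta1 and the summed neuronal and muscle levels. Genes that overlap Cx3cr1 or Mertk only outside exons are not named. Some genes that the rule names are not reported here.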

Additional observations from a re-analysis of the deposited data

Results flagged for a closer look

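In 88 groups of values examined (genes named by the rule, library totals, the mitochondrial share and the members' sum, each in 7 D95N or 8 wild-type libraries), 6 held a library far from the rest of its group, where chance gives about 1 in 20. None of the 10 members was among them. Cx3cl1 stood at 697 CPM in D95N 28, next to 610 CPM. In wild-type 32 S100a8 was 9.53 CPM (next 2.35), Ltf 4.27 CPM (next 1.78) and S100a9 10.3 CPM (next 2.92), and mitochondrial genes took 4.30% of counts (next 3.88%). Rps9 was lowest in wild-type 24, at 58.4 CPM next to 64.4 CPM.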

How the results depend on the processing

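The controls were littermates, but litters are not in the labels, so no analysis paired or blocked by litter was possible. None of the members was called higher in any alternative. The number called lower was 0 with TMM factors and 3 with library totals, 2 with upper-quartile factors or the GC and length correction, and 1 with DESeq2, limma-voom, thinning or the other microglia covariate, and 0 to 1 leaving out 1 library. Over all genes the astrocyte covariate left 3 higher and 2 lower, and the red cell and meningeal covariates 3 and 5. The variance inflation of genotype was 3.84 and 3.1 with these covariates and 1.01 with other microglia genes.

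Signs turned in these cases, and the cause was not tested. Cx3cr1 was -0.0224 with library totals, -0.0119 with upper-quartile factors, -0.0048 with limma-voom, -0.0289 with the microglia and -0.1807 with the astrocyte covariate, and -0.023 to 0.0884 leaving out 1 library. P2ry13 was 0.004 after thinning, 0.0405 with the GC and length correction, 0.0021 with the red cell and meningeal covariates, and -0.0439 to 0.0612 leaving out 1 library. With the astrocyte covariate Csf1r was 0.0342, Mertk 0.0438, Pros1 -0.0435 (-0.0317 to 0.0927 leaving out 1 library), Tyro3 -0.1753, Nt5e -0.0807, S100a8 0.057, Ltf 0.7192 and S100a9 0.6972. With the red cell and meningeal covariates Olfml3 was 0.4082, Nt5e -0.3209 and Med12l 0.0587. Without wild-type 32, S100a8 was -1.74 and passed, and S100a9 was -1.18 with an edgeR adjusted p of 0.108. The SEs of the members, 0.04 to 0.14, set the size of change that could be seen.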

Other observations

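Without D95N 21 the 8 genes most like the mean of the members were Cthrc1, Tspan17, Ifnar2, Prdx6, Cog4, Phkg1, Paqr7 and Nfatc4, with r from 0.82 to 0.89 over 14 libraries. None of them is in the lists of microglia genes used here. With all 15 libraries their r ran from 0.05 for Cog4 to 0.76 for Nfatc4 and Phkg1. These are the highest of 13810 values and are given as a description.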
